A study of Mus musculus with 5 samples.

Results

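The genes described here are 10 genes of the response of mouse macrophages to IL-4, given as a list of symbols and matched to the Entrez Gene identifiers of the deposited files: *Il4ra*, *Stat6*, *Chil3*, *Retnla*, *Mgl2*, *Tgm2*, *Alox15*, *Pparg*, *Socs1*, and *Cish*. Of the 10, 9 had a count in at least 1 library and 7 passed the filter on low counts, among 12576 genes tested in all. The libraries came from BALB/c bone marrow–derived macrophages (BMDMs), matured in M-CSF and then cocultured for 48 hours with 4T1 cells, a mouse mammary carcinoma line. Of the 5 libraries, 2 had WT 4T1 cells as the partner and 3 had *Adam17*-/- 4T1 cells, which all bear the same knock-out designation (2.8), and an effect of losing ADAM17 and one of any other trait of the line cannot be told apart. A porous membrane separated the cell types. The knock-out was in the cancer cells, and *Adam17* itself was at 198 and 200 CPM in the WT cocultures and at 152 to 164 CPM in the *Adam17*-/- cocultures. No sample of the series was treated with IL-4, so the list is named for what its genes are known for and not for a treatment given here.

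IL-4 and IL-13 signal through receptors that share the IL-4 receptor α chain (IL4RA). IL-4 pairs it with the common γ chain (IL2RG) or with IL13RA1, and IL-13 uses the IL13RA1 pair. JAK kinases bound to the chains then phosphorylate STAT6, which enters the nucleus and activates genes such as *Chil3*, *Retnla*, *Mgl2*, *Alox15*, and *Tgm2*, in part together with the nuclear receptor PPARG, while SOCS1 and CISH act as feedback inhibitors of cytokine receptors. Macrophages in this state are called alternatively activated, and many tumor macrophages share features with it.

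STAT6 dimers bind a palindrome with a 4-base spacer, and other STAT dimers mostly one with a 3-base spacer, so both spacings were searched in the RefSeq promoter windows of GRCm38.p6, which run from 250 bases before to 50 bases after an annotated start. The letters TTCNNNNGAA and TTCNNNGAA read the same on both strands and cannot match at the same place. Windows were given for 8 of the 10 genes (3 of them for *Pparg*), with none for *Tgm2* and *Alox15*. TTCNNNNGAA was in 6.95% and TTCNNNGAA in 8.30% of all 32851 windows. Among the members, the 4-base spacing was found in the window of *Retnla* (chr16:48842444-48842493, plus strand, its match starting 145 bases before the start) and the 3-base spacing in those of *Chil3* (chr3:106167708-106167756, minus strand, 172 bases before the start) and *Cish* (chr9:107296654-107296678, plus strand, with 2 matches, of which the first begins at the annotated start). The stretches are shown because these 3 genes are the members whose windows held a match. Capitals mark the matches, and each sequence is written 5′ to 3′ on the strand of its gene.
Retnla: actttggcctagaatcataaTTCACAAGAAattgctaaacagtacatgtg
Chil3: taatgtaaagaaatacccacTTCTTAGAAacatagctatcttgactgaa
Cish: cagttTTCCTGGAAagTTCTTGGAA
A match is a run of letters and not a site shown to be bound. The windows of *Il4ra*, *Stat6*, *Pparg*, *Mgl2*, and *Socs1* held neither motif.

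The libraries held 14658694 to 20788373 expected counts, estimates that divide a read among the transcripts it matches, and a gene at 3 counts was at 0.157 to 0.197 CPM, the floor under which no order of levels was read. CPM here is the TMM-normalized CPM, a count scaled to library size, and FPKM, used to compare genes, is also corrected for transcript length. The cells carried macrophage transcripts, with the 9 markers of that list summing to 28060 to 28890 CPM in the WT cocultures and 18190 to 20260 CPM in the *Adam17*-/- cocultures, led by *Lyz2*, and 7 of the 9 were lower. The 10 neutrophil lineage markers summed to 324 to 394 CPM against 1134 to 1311 CPM, led by *S100a9*, and 8 of them were higher. Epithelial markers of the cancer cells stayed under 1 CPM in sum in all 5 libraries, the most abundant being *Krt18*. In bulk RNA, fewer cells of a type and less RNA per cell cannot be told apart. The WT replicates differed more from each other (chi-square per degree of freedom 25.7) than the *Adam17*-/- replicates did (5.22 to 6.32), and the labels do not say whether replicates were separate cultures, so p-values measure the spread between these samples only.

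Taken by level, the 10 genes spanned the range from abundant to not listed. *Tgm2*, *Il4ra*, and *Stat6* were abundant, *Socs1*, *Chil3*, and *Cish* moderate, *Pparg* low, and *Mgl2*, *Alox15*, and *Retnla* at or near 0. In macrophages cocultured with WT cells, *Tgm2* stood at 306 ± 1.80 FPKM (SD, n = 2), *Il4ra* at 214 ± 17.4 FPKM, and *Stat6* at 110 ± 2.69 FPKM, and these ranges did not overlap. *Socs1* (7.14 ± 0.785 FPKM), *Chil3* (5.52 ± 0.799 FPKM), and *Cish* (5.31 ± 0.403 FPKM) lay together, and the ranges of the last pair overlapped. With *Adam17*-/- cells, *Chil3* rose out of this group to 33.9 ± 2.97 FPKM (SD, n = 3), and the order of the other genes changed only in that *Cish* (8.51 ± 0.175 FPKM) passed *Socs1* (7.01 ± 0.905 FPKM).

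**Figure D1:**
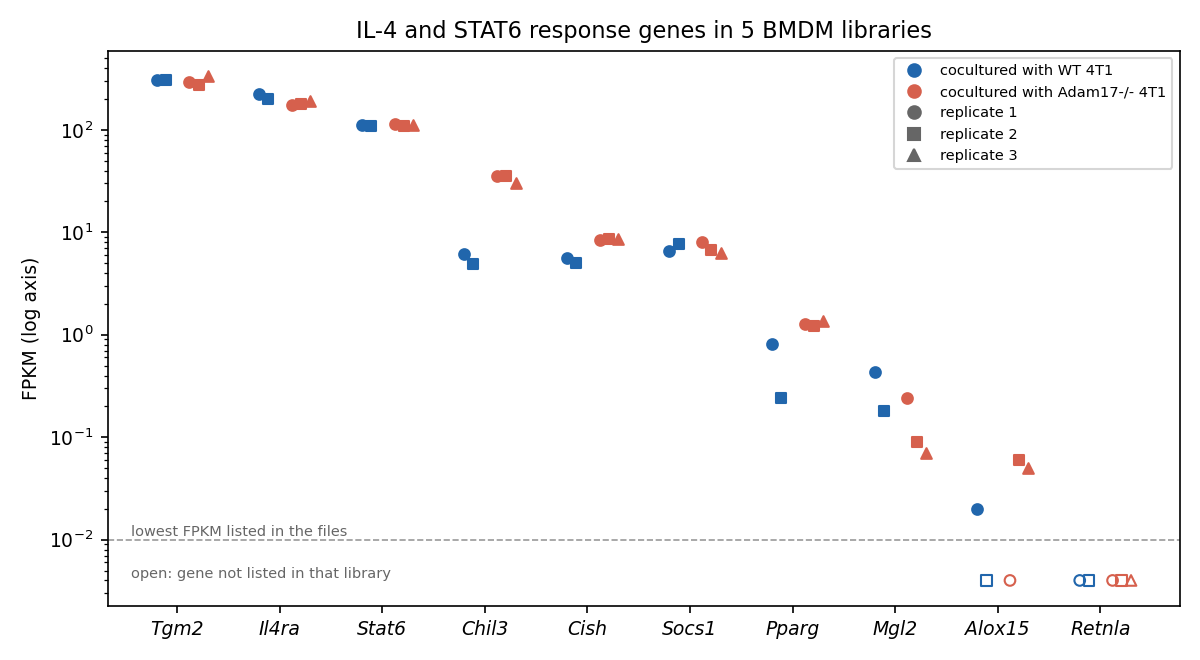
FPKM (log axis) of the 10 genes in each of the 5 libraries, genes ordered by their mean, with color for the group and shape for the replicate; open symbols stand for a gene that a library's file does not list, below the lowest listed FPKM of 0.01. The *Chil3* points of the groups are apart (4.95 and 6.08 FPKM against 30.4 to 35.7 FPKM), the *Tgm2* points overlap, and *Retnla* has open symbols alone.

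A gene was called higher or lower where edgeR's quasi-likelihood test, adjusted over all genes by Benjamini-Hochberg, gave 0.05 or less, which 31.7% of the 12576 genes met (14.9% higher, 16.8% lower). Of the 7 members tested, 3 met it: *Chil3* and *Cish* were higher and *Il4ra* was lower in macrophages cocultured with *Adam17*-/- cells. The other 4, *Stat6*, *Pparg*, *Tgm2*, and *Socs1*, did not. At 3 of 7, the share is not far from that of all genes. The median log2 fold change of the 7 was -0.13, against 0.01 over all genes tested. A change of 1 or more on the log2 scale as well was met by *Chil3* alone, and by 4.22% of all genes (3.36% higher, 0.867% lower). The groups did not overlap in CPM for 5 of the 7 (*Chil3*, *Cish*, and *Pparg* higher, *Il4ra* and *Stat6* lower), as they did not for 58.1% of all genes (28.4% higher, 29.7% lower). The balance over all genes depended on the scaling, with 1869 genes higher and 2114 lower under TMM factors, 3019 and 1077 with library size only, and 2927 and 1016 with limma on log2(FPKM + 0.1), where the median gene stood at 0.16 and 0.15 on the log2 scale.

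**Figure D2:**
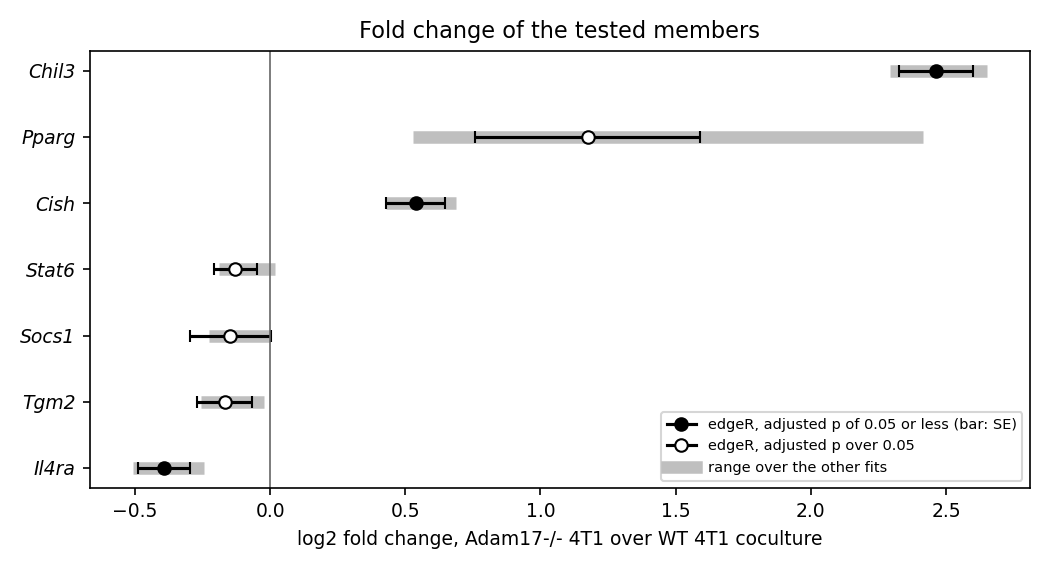
Log2 fold change of the 7 tested members, macrophages cocultured with *Adam17*-/- over WT 4T1 cells, from edgeR; points with bars are the estimate and its standard error, filled where the adjusted p was 0.05 or less, and gray bars span the other fits. *Chil3* lies at 2.46 and *Pparg*, at 1.18, has the widest span, from 0.53 to 2.41.

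The receptor chain came first. *Il4ra* (Entrez Gene 16190, chromosome 7, 125552271 to 125579474 of GRCm38), the chain that binds IL-4, was at 1246 and 1061 CPM in WT replicates 1 and 2 and at 837, 872, and 924 CPM in *Adam17*-/- replicates 1, 2, and 3. All 3 *Adam17*-/- libraries were under both WT libraries. The log2 fold change was -0.39 ± 0.0959 (SE, adjusted p = 0.0136, edgeR), 1.31-fold lower. This call was at the edge of the test. The adjusted p was 0.0534 with library size only, 0.0568 and 0.0569 in the FPKM fits, and 0.0794 and 0.0568 without *Adam17*-/- replicates 1 and 2, while the direction was the same in each. A single transcript of *Il4ra* was listed.

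The partner chains moved in opposite directions. *Il2rg*, the common γ chain, was at 219 and 174 CPM with WT cells and at 119, 141, and 121 CPM with *Adam17*-/- cells, a log2 fold change of -0.63 ± 0.115 (SE, adjusted p = 0.00388). *Il13ra1*, the chain of the receptor that also binds IL-13, was at 48.4 and 67.1 CPM against 89.4, 80.5, and 88.3 CPM, a log2 fold change of 0.58 ± 0.132 (SE, adjusted p = 0.0101). Both groups were apart for both genes, and both calls held in all 13 other fits. The log2 fold change across them was -0.79 to -0.46 for *Il2rg* and 0.36 to 0.83 for *Il13ra1*. A ratio of these genes within a library does not depend on scaling, and it was formed after their values were seen. Per length, *Il2rg* was 10.4 and 5.95 times as abundant as *Il13ra1* in the WT replicates and 3.07, 4.025, and 3.16 times in the *Adam17*-/- replicates. The α chain was the most abundant of the 3 in every library, at 173 to 226 FPKM, above *Il2rg* at 78.4 to 126 FPKM and *Il13ra1* at 12.1 to 25.6 FPKM. The IL-13 decoy receptor *Il13ra2* was not listed in any library.

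**Figure D3:**
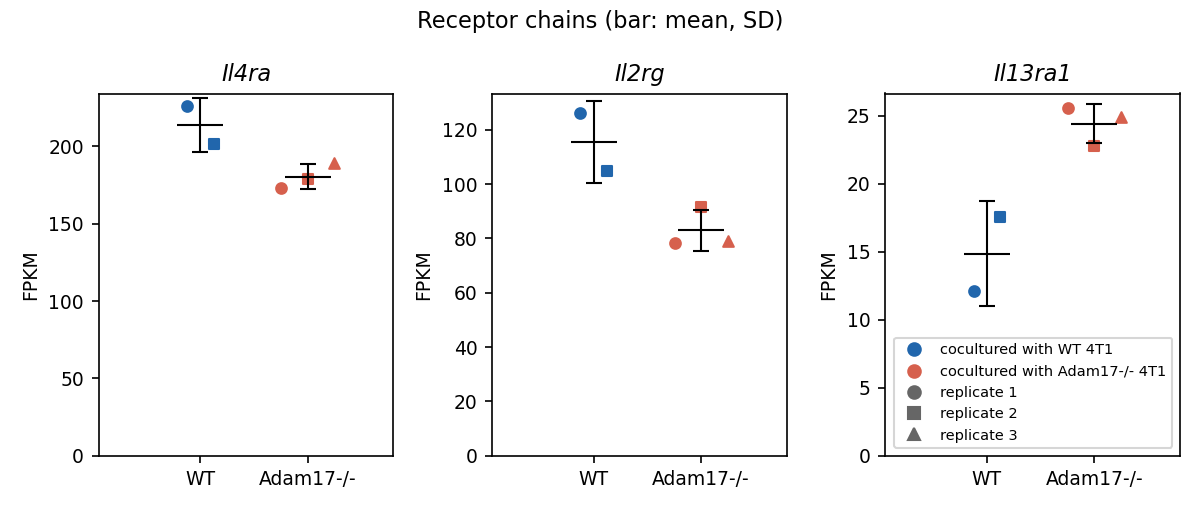
FPKM of *Il4ra*, *Il2rg*, and *Il13ra1* in each library, with the mean and SD of each group as black bars (n = 2 and n = 3) and each vertical axis starting at 0. *Il4ra* and *Il2rg* are lower and *Il13ra1* is higher in all 3 *Adam17*-/- libraries than in both WT libraries, with *Il13ra1* at 12.1 and 17.6 FPKM against 22.8 to 25.6 FPKM.

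The ligands were close to absent from the macrophages. *Il4* had 2 counts in *Adam17*-/- replicate 3 and none in the other libraries, and *Il13* had 0 to 3 counts in a library. The sequenced RNA does not show what the cancer cells expressed. Of the list of 11 ligands, receptor chains, and kinases, 7 genes were tested, 2 were higher and 2 lower. Besides the receptor chains, the kinase *Jak2* was higher (log2 fold change 0.41 ± 0.104, adjusted p = 0.0167) and *Jak1*, which binds the α chain, lower (-0.27 ± 0.0804, adjusted p = 0.0295). The call of *Jak2* was lost without any one of the *Adam17*-/- replicates (adjusted p 0.0551 to 0.0735), as was that of *Jak1* (0.102 to 0.161), which was also lost with library size only (0.266). Of the 13 other fits, the call of *Jak2* was lost in 4 and that of *Jak1* in 8. *Jak3*, which binds the γ chain, was at 422 and 325 CPM against 437 to 484 CPM (log2 fold change 0.30, adjusted p = 0.0716). Its adjusted p was 0.0121 with library size only, 0.2165 with the block, and 0.0891 to 0.1485 without any one of the *Adam17*-/- replicates. The log2 fold change of *Jak3* was 0.50 without WT replicate 1 and 0.12 without WT replicate 2. The count of genes that passed fell from 4 to 2 without any one of the *Adam17*-/- replicates.

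*Stat6* (Entrez Gene 20852, chromosome 10, 127642955 to 127660987), the transcription factor itself, differed little between the groups. It was at 457 and 422 CPM in the WT replicates and at 405, 395, and 405 CPM in the *Adam17*-/- replicates, so that the groups were apart by a small step. The log2 fold change was -0.13 ± 0.0791 (SE, adjusted p = 0.240). In FPKM the libraries were at 112 and 108 against 114, 110, and 112, and the sign turned to 0.02 under library size scaling and in either FPKM fit, where the median of all genes was itself 0.11 to 0.16.

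*Chil3* (Entrez Gene 12655, chromosome 3, 106147554 to 106167564) encodes Ym1, a secreted chitinase-like lectin that is a marker of alternatively activated macrophages and is also made by neutrophil precursors of the bone marrow. It had 186 and 140 counts in WT replicates 1 and 2 and 908, 770, and 817 counts in *Adam17*-/- replicates 1, 2, and 3, or 9.73 and 7.58 CPM against 49.7, 50.7, and 43.3 CPM. Every *Adam17*-/- library stood far above both WT libraries, and the spread within a group was small beside the step between them. The gene rose 5.52-fold, that is, 2.46 ± 0.137 (SE, adjusted p = 6.18e-05, edgeR), and the value was 2.29 to 2.65 across the 13 other fits, all of which passed. *Chil4*, its near-identical neighbor in the chitinase-like family, was not listed in any library, and the counts of *Chil3* were whole numbers in all 5, so no read was divided between them. The related gene *Chil1* was also higher, at 3.98 and 3.95 CPM against 8.43, 10.1, and 9.002 CPM (log2 fold change 1.21 ± 0.155, adjusted p = 0.000900).

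Neutrophil lineage transcripts moved with *Chil3*. Of the 10 markers of that list, 8 were higher and none lower, the median log2 change was 1.76, and none was at 0 in all libraries. The most abundant, the calcium-binding protein gene *S100a9*, was at 216 and 173 CPM in the WT replicates and at 683, 630, and 625 CPM in the *Adam17*-/- replicates (log2 fold change 1.73 ± 0.112, adjusted p = 0.000115). Of the 10 markers, the granule genes *Mpo* (log2 fold change 1.64, adjusted p = 0.0581) and *Ctsg* (1.57, adjusted p = 0.138), did not pass the test. The groups of *Ctsg* overlapped, at 1.20 and 0.433 CPM against 0.547, 4.80, and 2.22 CPM. The part of these cells in the change of *Chil3* was not tested. Of 6 mast cell and basophil markers, the 1 tested, *Kit*, was higher, at 1.20 and 0.541 CPM against 2.19, 1.51, and 1.91 CPM (log2 fold change 1.10, adjusted p = 0.0471), a call lost in 7 of the 13 other fits, and *Tpsb2* was not listed in any library. Of 3 eosinophil markers tested, 1 was higher, *Siglecf*, a share (33.3%) near that of all genes (31.7%). The list summed to 4.82 to 6.80 CPM against 13.7 to 18.9 CPM. Most of that was *Siglecf* alone, at 4.61 and 3.14 CPM against 11.2 to 13.3 CPM.

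**Figure D4:**
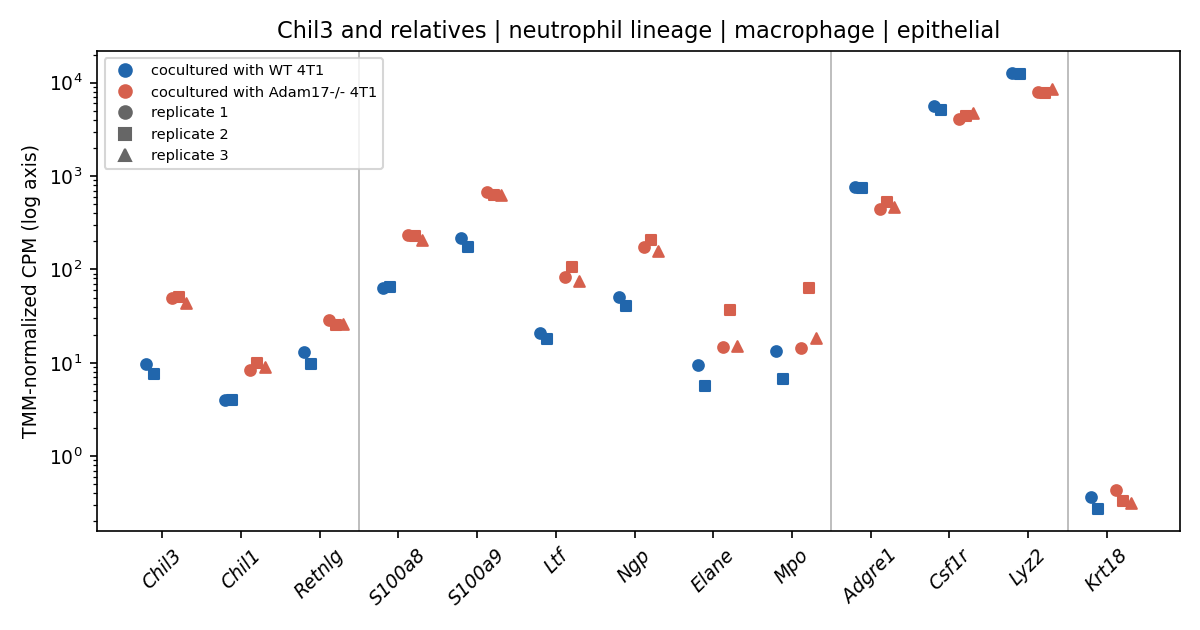
TMM-normalized CPM (log axis) in each library for *Chil3*, its relative *Chil1*, and *Retnlg*, for 6 neutrophil lineage markers, for 3 macrophage markers, and for the epithelial marker *Krt18*, with color for the group and shape for the replicate. The points of *Chil3* and of the 6 neutrophil lineage genes, *Mpo* included, which did not pass the test, lie above those of both WT libraries in all 3 *Adam17*-/- libraries, those of *Adgre1*, *Lyz2*, and *Csf1r* (adjusted p = 0.0520) lie below, and *Krt18* stays under 1 CPM. The neutrophil lineage marker *Ctsg*, whose groups overlapped, is not drawn.

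*Retnla* (Entrez Gene 57262, chromosome 16, 48842609 to 48844461), which encodes the secreted protein RELMα (FIZZ1) and is among the most strongly IL-4-induced genes of mouse macrophages, was not listed in any of the 5 libraries, whose files hold transcripts at 0.01 FPKM or more. No fold change can be given. Its relative *Retnlg*, a gene of neutrophils and their precursors, had 250 and 181 counts against 526, 390, and 494 counts, all of them whole, and was higher at 13.1 and 9.80 CPM against 28.8, 25.7, and 26.2 CPM (log2 fold change 1.23 ± 0.138, adjusted p = 0.000550). Within the resistin-like family, *Retnla* was thus not detected in either group, and *Retnlg* was higher. The part of neutrophil lineage cells in the change of *Retnlg* was not tested.

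*Mgl2* (Entrez Gene 216864, chromosome 11, 70130125 to 70137542), the C-type lectin CD301b of alternatively activated macrophages and dendritic cells, had 13 and 5 counts in the WT replicates and 6, 2, and 2 counts in the *Adam17*-/- replicates. The groups overlapped, and 2 of the *Adam17*-/- libraries were under the floor of 3 counts. The gene did not pass the filter, and without a filter its log2 fold change was -1.29 (adjusted p = 0.215). Its neighbor *Clec10a* (CD301a), from which it is not fully separable because counts of both were not whole in 2 libraries, had 73 and 81 counts against 37, 44, and 37 and was lower, with a log2 fold change of -0.85 ± 0.226 (SE, adjusted p = 0.0192). That call was lost in 4 of the 13 other fits. They were the replicate number as a block (adjusted p = 0.0588), the fits without *Adam17*-/- replicates 1 (0.0793) and 3 (0.0784), and that without WT replicate 2 (log2 fold change -0.75).

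*Alox15* (Entrez Gene 11687, chromosome 11, 70344147 to 70390538), the 12/15-lipoxygenase, had 1 count in WT replicate 1, 2 counts each in *Adam17*-/- replicates 2 and 3, and was not listed in the other 2 libraries. All 5 values were under the floor, and no order can be read from them. *Alox5*, the 5-lipoxygenase, was by contrast well expressed, at 169 and 171 CPM against 111, 90.9, and 105 CPM.

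*Tgm2* (Entrez Gene 21817, chromosome 2, 158116405 to 158146392), a transglutaminase that cross-links proteins and marks alternatively activated macrophages of mouse and human, was the most abundant member. It was at 1154 and 1112 CPM with WT cells and at 967, 930, and 1128 CPM with *Adam17*-/- cells. *Adam17*-/- replicate 3 lay between the WT replicates, so the groups overlapped, and the log2 fold change was -0.17 ± 0.1003 (SE, adjusted p = 0.225). It was -0.26 to -0.02 across the other fits, none of which passed.

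*Pparg* (Entrez Gene 19016, chromosome 6, 115360879 to 115490404), the nuclear receptor that cooperates with STAT6, was a low transcript. It had 31 counts in WT replicate 1 and 8 in WT replicate 2, against 44, 33, and 46 counts in the *Adam17*-/- replicates, or 1.62 and 0.433 CPM against 2.41, 2.17, and 2.44 CPM. All *Adam17*-/- libraries were above both WT libraries, which lay further from each other than replicate 1 lay from the *Adam17*-/- group. The log2 fold change was 1.18 ± 0.417 (SE, adjusted p = 0.0565, edgeR). The size of the change hung on the WT replicates, with a log2 fold change of 2.41 without replicate 1 and 0.53 without replicate 2. Without any one of the *Adam17*-/- replicates it was 1.168 to 1.245 and did not pass (adjusted p 0.09615 to 0.1202). *Pparg* passed in 8 of the 12 other fits, among them DESeq2 (adjusted p = 0.0492). The counts were divided among 3 transcripts, and the split differed from library to library, so that no isoform is described.

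The genes that work with PPARG did not share a direction. Of 10 tested, 2 were higher and 3 lower. Its partner *Rxra* was lower at 199 and 179 CPM against 129, 142, and 138 CPM (log2 fold change -0.47 ± 0.0864, adjusted p = 0.004004), and the other partner *Rxrb* was higher at 47.1 and 42.6 CPM against 60.3, 60.9, and 57.6 CPM (0.41 ± 0.0885, adjusted p = 0.00823). Among the targets, the scavenger receptor *Cd36* was higher (0.88 ± 0.296, adjusted p = 0.0477), with *Adam17*-/- replicate 2 at 77.6 CPM and the other libraries at 25.5 to 46.5 CPM. Without that replicate its log2 fold change was 0.50 (adjusted p = 0.0894), and the call was also lost in DESeq2 (adjusted p = 0.162), on log2(FPKM + 1) (0.0548), without WT replicate 2 (0.0970), and without *Adam17*-/- replicate 3 (0.0753). *Cpt1a*, of fatty acid oxidation, was lower (-0.29 ± 0.0805, adjusted p = 0.0235) but not with library size only (adjusted p = 0.207) or without any one of the *Adam17*-/- replicates (0.0848 to 0.156). Its call was lost in 8 of the 13 other fits. *Fabp4*, a well-known PPARG target, was at 5.29 and 3.41 CPM against 5.25, 6.12, and 3.39 CPM (log2 fold change 0.16, adjusted p = 0.671). The count that passed fell from 5 to 2 without *Adam17*-/- replicate 2 or 3.

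*Socs1* and *Cish* are feedback inhibitors of one family. *Socs1* (Entrez Gene 12703, chromosome 16, 10783808 to 10785536), which blocks JAK kinases, was at 8.37 and 9.31 CPM with WT cells and at 9.03, 7.76, and 7.15 CPM with *Adam17*-/- cells. The groups overlapped, and the log2 fold change was -0.15 ± 0.149 (SE, adjusted p = 0.475). Its counts were divided between 2 transcripts, of which NM_001271603 took an estimated 15.2% and 10.9% in the WT replicates and 23.2%, 48.9%, and 15.2% in the *Adam17*-/- replicates, with replicate 2 apart from the rest.

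*Cish* (Entrez Gene 12700, chromosome 9, 107296659 to 107302784), an SH2 protein that binds cytokine receptors and is a classical target of STAT5 as well, was at 17.8 and 15.3 CPM in the WT replicates and at 23.4, 24.1, and 24.6 CPM in the *Adam17*-/- replicates. The 3 *Adam17*-/- libraries lay close together and above both WT libraries. The gene rose 1.45-fold, a log2 fold change of 0.54 ± 0.109 (SE, adjusted p = 0.00602, edgeR), and passed in all 13 other fits, with values of 0.43 to 0.69. Of its 2 transcripts, NM_001317354 took an estimated 10.1% and 10.025% of the counts with WT cells and 4.63%, 6.58%, and 5.69% with *Adam17*-/- cells. The matches printed above at its start are of the 3-base spacing.

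Among 7 other inhibitors of JAK-STAT signaling, all tested, 2 were higher and 2 lower. *Socs2*, another target of STAT5, was higher at 41.3 and 48.1 CPM against 83.3, 80.8, and 89.8 CPM, a log2 fold change of 0.92 ± 0.0993 (SE, adjusted p = 0.000485). The other 3 had small changes, with the phosphatase *Ptpn2* at 0.29 (adjusted p = 0.0469), *Ptpn6* at -0.29 (adjusted p = 0.0249), and *Socs5* at -0.28 (adjusted p = 0.0471). Without any one of the *Adam17*-/- replicates, *Socs2* alone passed. Of the 13 other fits, the call of *Socs5* was lost in 12, that of *Ptpn6* in 8, and that of *Ptpn2* in 6, with the direction kept in each, while that of *Socs2* held in all 13. *Socs3* was at 179 and 169 CPM against 175, 206, and 180 CPM (log2 fold change 0.10, adjusted p = 0.437).

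Since *Cish* and *Socs2* also answer to STAT5, a list for that factor was read beside them. *Socs2* is in both this list and that of the inhibitors, so its change is counted in each. Of 9 STAT5 pathway genes, all tested, 2 were higher, *Socs2* among them, and 2 lower. Besides *Socs2*, the kinase gene *Pim1* was higher (log2 fold change 0.56 ± 0.0951, adjusted p = 0.00293), and *Bcl2l1*, the survival gene of BCL-xL (-0.81 ± 0.0980, adjusted p = 0.000711), and *Stat5a* (-0.40 ± 0.102, adjusted p = 0.0164) were lower. The counts of *Stat5a* were not whole in any library, *Stat5b* being a close paralog, and its adjusted p was 0.0739 with library size only and 0.0601 to 0.0710 without any one of the *Adam17*-/- replicates. The call of *Stat5a* was lost in 7 of the 13 other fits.

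The wider list of alternative activation genes held 30 genes, of which 24 were tested, 8 were higher and 5 lower, the median being 0.26 on the log2 scale. The share of tested genes that passed was 54.2%, beside 57.1% of the receptor chains and kinases, 57.1% of the inhibitors, 50% of the PPARG genes, 44.4% of the STAT5 genes, and 31.7% of all genes, and no difference between these shares was tested. Past a change of 1 on the log2 scale, 6 were higher and 2 lower. The higher genes were the VEGF receptor *Flt1* (1.40 ± 0.389, adjusted p = 0.0234), the chemokine *Ccl22* (1.39 ± 0.267, adjusted p = 0.00498), the proton pump subunit *Atp6v0d2* (1.25 ± 0.227, adjusted p = 0.00385), *Irf4*, a transcription factor of alternative activation (1.17 ± 0.178, adjusted p = 0.00172), the checkpoint ligand *Pdcd1lg2* (1.06 ± 0.229, adjusted p = 0.00816), and the β-glucan receptor *Clec7a* (1.06 ± 0.116, adjusted p = 0.000532). The lower genes were *Myc* (-1.73 ± 0.186, adjusted p = 0.000477) and the mannose receptor *Mrc1* (-1.28 ± 0.0920, adjusted p = 0.000145). Across the 13 other fits, *Ccl22* had log2 fold changes of 0.94 to 2.04 and *Atp6v0d2* of 0.89 to 1.71. Those of *Irf4* were 0.65 to 1.32, of *Pdcd1lg2* 0.73 to 1.43, and of *Clec7a* 0.97 to 1.21. *Myc* stayed at -1.49 or less and *Mrc1* at -1.13 or less. Of the 8, *Flt1* was the 1 whose call was lost without a single library, with an adjusted p of 0.0536 without WT replicate 1, 0.0589 without *Adam17*-/- replicate 2, and 0.0760 without replicate 3. Its call was also lost with the replicate number as a block (log2 fold change 1.09, adjusted p = 0.0691) and on log2(FPKM + 1) (0.25, adjusted p = 0.0756). *Flt1* was at 0.12 and 0.34 FPKM in the group means, and adding 1 shrinks the log2 fold change of a gene at such levels. Why its call was lost was not tested. *Ccl17*, another IL-4-induced chemokine, had 1 and 3 counts against 11, 6, and 7 counts and did not pass the filter. Of 3 dendritic cell markers tested, 1 was higher, *Ccr7*, at 4.34 and 2.06 CPM against 9.30, 6.97, and 7.73 CPM (adjusted p = 0.00673, log2 fold change 1.32), while *Flt3* (0.79, adjusted p = 0.0853) and *Xcr1* (0.54, adjusted p = 0.0584) did not pass. The share of tested dendritic cell markers that passed was 33.3%, near the 31.7% of all genes. The 4 markers of that list, *Ccr7* included, summed to 5.95 to 8.69 CPM against 12.4 to 16.1 CPM. The part of such cells in the change of *Ccl22*, *Irf4*, or *Pdcd1lg2* was not tested.

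**Figure D5:**
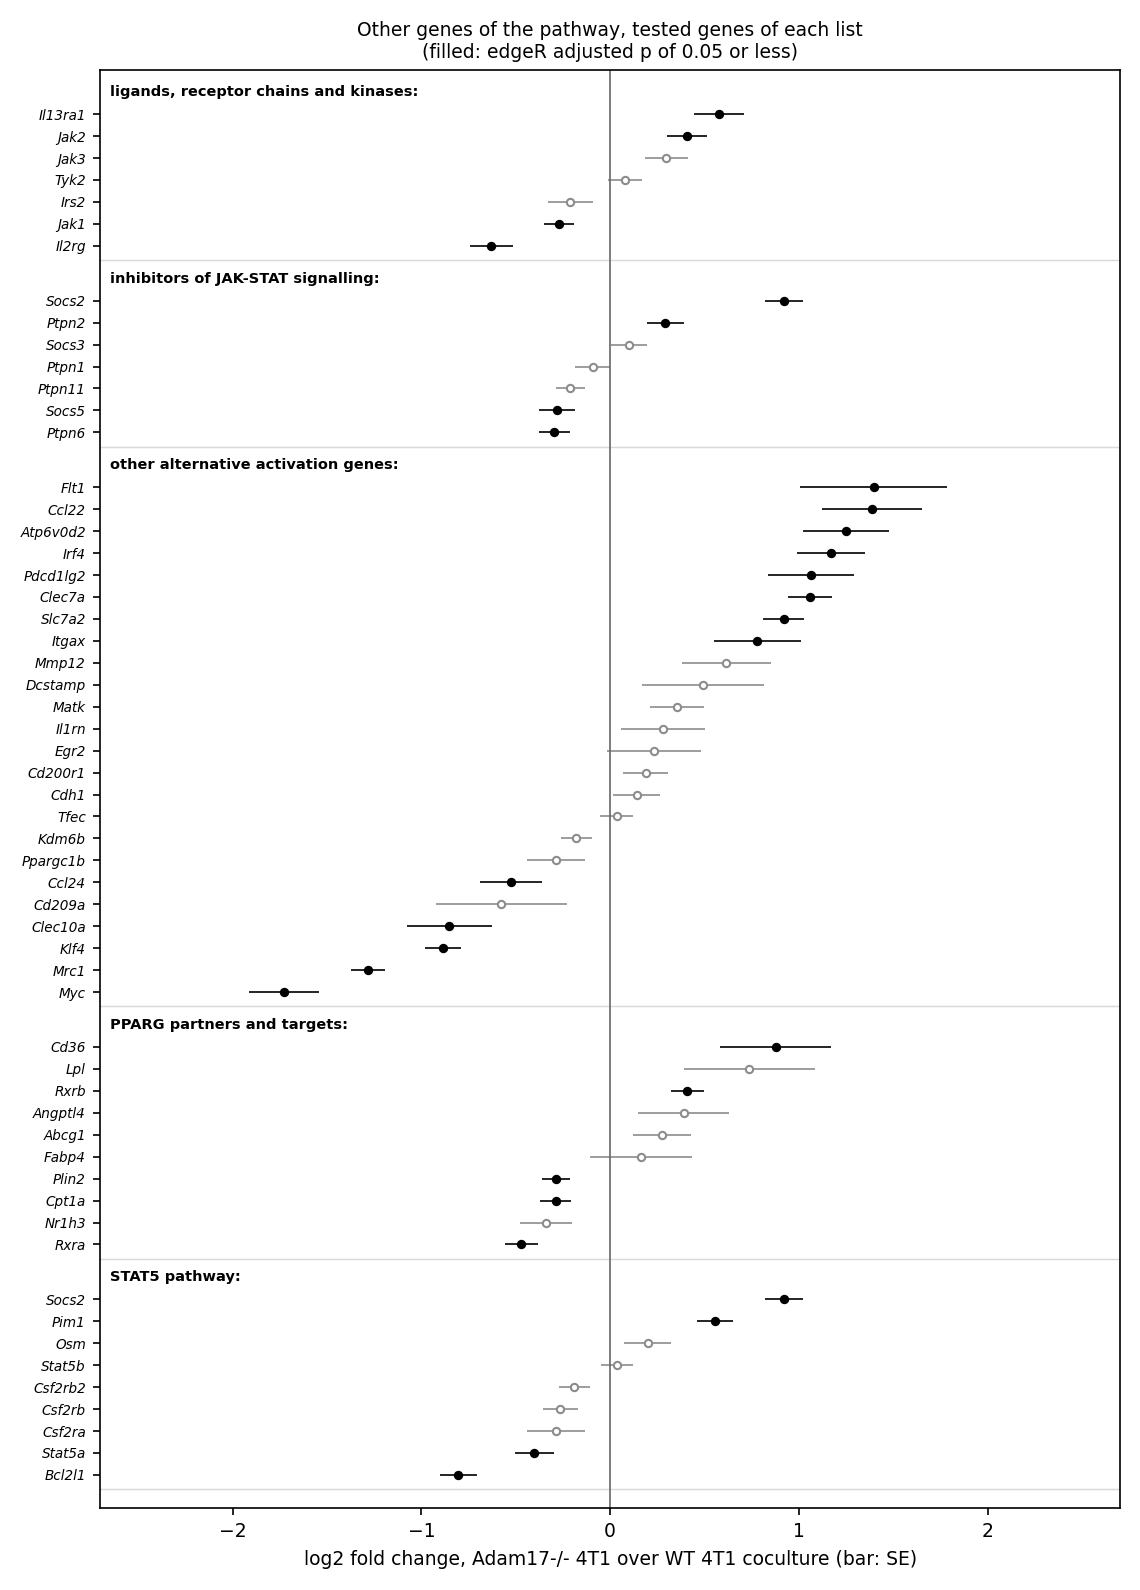
Log2 fold change with its standard error for the tested genes of 5 lists of the pathway, macrophages cocultured with *Adam17*-/- over WT 4T1 cells, filled where edgeR's adjusted p was 0.05 or less. Each list holds genes on both sides of 0, and the widest span is that of the other alternative activation genes, from *Myc* at -1.73 to *Flt1* at 1.40.

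The genes of the list and of the wider set can be put side by side by their level with WT cells. *Mrc1*, at 188 FPKM, was among the abundant ones and fell to 85.7 FPKM, and *Tgm2*, at 306 FPKM, was at 301 FPKM. *Chil3* and *Clec7a*, at 5.52 and 34.0 FPKM, rose to 33.9 and 78.6 FPKM. *Clec10a*, at 2.695 FPKM, fell to 1.66 FPKM, and *Mgl2*, *Alox15*, and *Retnla*, were at 0.305 FPKM or less in both groups.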

How the data were processed

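RNA-Seq libraries of 2 BMDM samples cocultured with WT and 3 with *Adam17*-/- 4T1 cells were compared, grouped by their labels. The authors sequenced poly-A RNA on a BGISEQ-500, aligned reads to GRCm38 with HISAT, and quantified transcripts with Bowtie2; the submitters' processing notes also name RSEM and DESeq2. Versions and strand handling are not given in the sources used here. Per library, the authors deposited an expected count and an FPKM value for each transcript at 0.01 FPKM or more, and unlisted transcripts were taken as 0. Of the gene sums, 13.2% to 14.0% were not whole (tolerance 0.02).

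Expected counts were summed per gene, rounded, and tested in edgeR 4.0.16 (R 4.3.3; TMM, filterByExpr, glmQLFit, glmQLFTest, no covariates), a procedure tested on simulated data. Standard errors, printed after ± beside log2 fold changes, are the log2 fold change divided by the square root of F. Depth, 14658694 to 20788373 counts, puts 3 counts at 0.157 to 0.197 CPM, and the spread between replicates enters the fit. With 2 against 3 samples, no exact permutation test of 1 gene can reach a p of 0.05. Other fits used upper quartile factors, library size only, DESeq2 1.42.0, no filter, a minimum of 10 counts per sample, limma 3.58.1 on FPKM (log2, pseudocount 0.1 or 1), the replicate number as a block, and each replicate left out. "Other fits" in the text are these 13. Replicate 3 exists only among the *Adam17*-/- libraries, so the block fit takes its group difference from replicates 1 and 2 alone. The members and gene lists were chosen with earlier results of these data known. All members are named; from each pathway list, up to 4 passed genes with groups apart by absolute log2 fold change, direct partners and near copies of members; from marker lists, the most abundant gene and any at 0. Other genes named or plotted (*Atp6v0d2*, *Irf4*, *Pdcd1lg2*, *Clec7a*, *Ccl17*, *Fabp4*, *Socs3*, *Chil1*, *Alox5*, *Flt3*, *Xcr1*, *Ctsg*, *Elane*, *Mpo*, *Ltf*, *Ngp*, *S100a8*, *Adgre1*, and *Csf1r*) were picked after their values were seen. Of 5 T cell and ILC2 markers, 2 were tested and neither passed, the most abundant was *Il7r* (114 to 149 CPM), and *Cd3g* was not listed in any library. One symbol for alternative activation was an older name of another (*Ear11*, now *Rnase2a*), which left 30 genes. One gene and one list planned at first are not reported here. Positions and promoter windows came from RefSeq for GRCm38.p6. Figures were drawn with matplotlib 3.10.9.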

Additional observations from a re-analysis of the deposited data

How the results depend on the processing

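The counts that passed among the members were 2 higher and 1 lower. With a log2 change of at least 1 in size also required, they were 1 and 0, and those of the lists were 0 for receptor chains and kinases, 0 for inhibitors, 0 for PPARG genes, 0 for STAT5, and 8 of 13 for alternative activation genes. The count of lower members was 0 under library size scaling and 0 in either FPKM fit, and with 1 replicate left out the members were 2 to 3 higher and 0 to 1 lower. For the inhibitors, 4 passed, against 2 with upper quartile factors, library size only, DESeq2, and either FPKM fit, 1 with the replicate number as a block, and 1 to 6 with a replicate left out. For the PPARG genes, 5 passed, against 3 with library size only, 3 on log2(FPKM + 0.1), 2 on log2(FPKM + 1), 3 with the block, and 2 to 7 with a replicate left out. For the receptor chains and kinases, 4 passed, against 2 with the block and 2 to 5 with a replicate left out. With a replicate left out, alternative activation genes gave 9 to 15 and STAT5 genes 3 to 6. Where a WT replicate is left out, the lone WT sample is assumed to vary like the other group. The causes of these moves were not tested. The labels give no reason to pair equal replicate numbers, and the block gave 3 members higher and 1 lower. Correlations of deviations between equal numbers (-0.16 and -0.08) cannot decide on pairing, since the deviations of the 2 WT libraries mirror each other. Over all genes, 1216 were higher and 1126 lower with the block, 2867 and 1011 on log2(FPKM + 1), and 1089 and 926 without *Adam17*-/- replicate 1. Summing *Chil3* with *Chil4* and *Retnla* with *Retnlg* gave no new value, since *Chil4* and *Retnla* were not listed. Low counts limit what can be said of *Mgl2* and *Alox15*. For *Pparg* the limits are low counts and the spread between the WT replicates (31 and 8 counts).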
